A study of Mus musculus with 6 samples.

Results

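Basement membrane and interstitial matrix genes were followed in RNA of sorted glomerular endothelial cells, which line the capillaries of the kidney's filter, by taking the gene rows whose symbol matched a fixed list. All 39 listed genes were found among the 12911 genes of the files. There were 16 basement membrane genes (collagens, laminins and linker proteins) and 23 interstitial and matricellular genes, and all 39 passed the filter on low counts. Every mouse was eNOS-null, that is, lacking endothelial nitric oxide synthase. The control group (3 pools) had no treatment, and the STZ group (3 pools) had received streptozotocin, a compound toxic to pancreatic beta cells and widely given to model diabetes. Each pool held RNA of 4 mice. Cells were sorted for the fluorescent protein EYFP from digested glomeruli that had been isolated on magnetic beads. The driver of EYFP, the age, sex and strain of the mice, the streptozotocin dose and the time after it were not given in the sources used here. The comparison asks which matrix genes differ between eNOS-null glomerular endothelial cells with and without streptozotocin.

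The glomerular basement membrane lies between the fenestrated endothelium and the podocytes, and both cell types contribute to it. Laminin trimers and type IV collagen trimers each form a network, and nidogens and the heparan sulfate proteoglycans perlecan and agrin connect these networks. In the mature glomerulus the collagen network made of the Col4a3, Col4a4 and Col4a5 chains comes mainly from podocytes, whereas the Col4a1 and Col4a2 chains are made by endothelial and mesangial cells. Fibrillar collagens, type VI collagen and fibrillin microfibrils belong to interstitial or mesangial matrix, and matricellular proteins such as SPARC, thrombospondin and CTGF act on cells and growth factors rather than as scaffold.

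Total deposited counts were 4387339 to 8751732.5 in the control pools and 10734376 to 12662372 in the STZ pools, so control values rest on fewer counts. Control pool 3 had the lowest total of the 6 pools and held 24 of the 34 blank values, which were read as 0. Spread between pools was larger in control for some members (Col4a3) and larger in STZ for others (Ctgf). Nos3, the gene the genotype targets, had 847, 757 and 917 CPM in control pools 1 to 3 and 613, 749 and 667 CPM in STZ pools 1 to 3, where CPM are counts per 1000000 of the normalised library size. Such a count cannot show the null allele. Endothelial markers were abundant, as the label of the sort has it. The 16 endothelial markers together reached 17472 to 17921 CPM in control and 22425 to 23696 CPM in STZ. Of the 16, 7 were called higher in STZ, where 5.47% of all tested genes were called higher and 4.32% lower. Markers of other glomerular cells were also present. The 15 podocyte markers analysed summed to 5040.3 to 7469 CPM in control and 5546 to 6515 CPM in STZ, and 15 mesangial and mural markers to 1728 to 1863 and 719 to 1418 CPM. Of 7 tubule markers 1 was called lower (Slc12a1), of 8 leukocyte markers 1 lower (Cd79a), of 6 fibroblast markers 1 higher (Ly6a) and of 3 parietal epithelial markers 0. The fibroblast list went both ways: 4 of the 6 had a positive log2 fold change, and Pdgfra (-0.86) and Tcf21 (-0.90), not called, had negative ones. Slc12a1 had an adjusted p of 0.0497 by edgeR and was not called in 10 of 18 alternative settings, among them those without control pool 3 (0.0829) or any STZ pool (0.164 to 0.190). The pools also split by sex-linked RNA along the line of treatment. Xist, the RNA that silences an X chromosome in female cells, was at 689.7 to 746 CPM in control and 0.387 to 0.865 CPM in STZ, and the Y-linked gene Ddx3y at 2.65 to 3.37 and 131 to 139 CPM. By these genes the control pools read as female and the STZ pools as male, though no sex is given for them. Treatment and this split cannot be told apart in any comparison below, and the p-values measure the spread between pools of mice. In bulk RNA, fewer cells of a type and less RNA per cell cannot be told apart either.

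Most matrix genes stayed short of the threshold. Col18a1 was the only member of the 39 that was called higher in STZ, and Col5a2, Col6a3, Fbn1 and Fbln2 were called lower, at an adjusted p under 0.05 in the edgeR quasi-likelihood test over all 12786 tested genes. Of all tested genes 9.78% were called, 5.47% higher and 4.32% lower. Among the basement membrane genes 1 of 16 was called, and among the interstitial and matricellular genes 4 of 23 were called, all of these 4 lower. The median log2 fold change, STZ against control, was -0.06 in the basement membrane genes and -0.23 in the interstitial and matricellular genes, against -0.01 over all tested genes. The 3 STZ pools lay wholly above the control pools in 5 members and wholly below in 8, together 13 of 39, where 29.1% of all tested genes had groups that did not overlap. The count called lower moved with single pools: 2 members were called lower without STZ pool 1 and 8 without control pool 3. On leaving out 1 pool the basement membrane median ran from -0.113 to 0.00256 (without control pool 3), which turned its sign, and the interstitial and matricellular median from -0.402 to -0.150. A call in 1 class and not in the other was not tested as a difference between the classes.

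**Figure D1:**
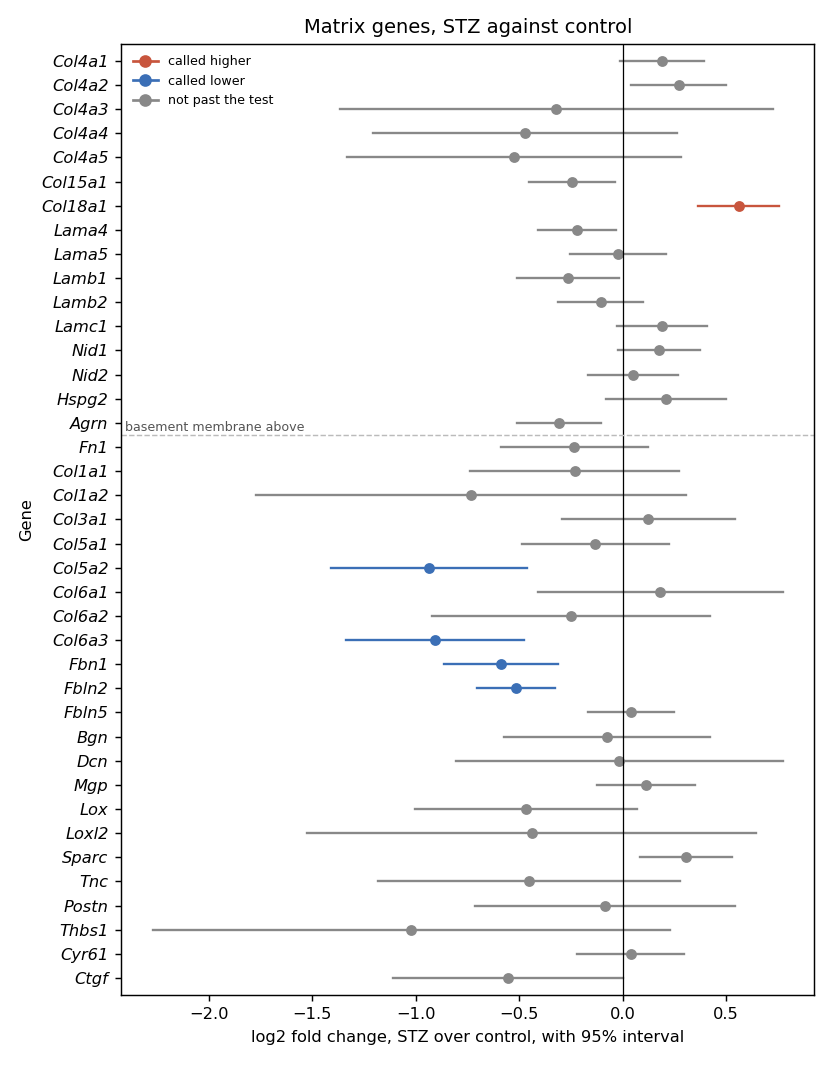
Log2 fold change of STZ over control (x axis) for the 39 matrix genes (y axis), with the basement membrane genes above the dashed line; points are edgeR estimates and bars 95% intervals, 3 pools against 3. Col18a1 is the only gene called higher, and Col5a2, Col6a3, Fbn1 and Fbln2 are called lower.

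The members covered a wide range of levels. Compared per kilobase of listed transcript, Sparc, which encodes a collagen-binding matricellular protein, was the most abundant member, at 649.8 CPM per kb in control and 804 CPM per kb in STZ (means of 3 pools). Ctgf, Lamb2, Col4a1, Col4a2, Mgp and Lama5 came next in control, between 229 and 113 CPM per kb. At the other end, Col6a1, Lox, Col1a1, Col6a2, Postn, Col3a1 and Dcn lay at 1.01 to 1.52 CPM per kb in control, so Col1a1 and Col3a1 were among the scarcest members, whereas Col1a2, the other chain of type I collagen, lay at 15.8 CPM per kb. The 39 genes together held 1.13% to 1.21% of all counts in a pool.

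Among the collagens of the basement membrane, Col18a1 rose. It encodes the core protein of a heparan sulfate proteoglycan whose end fragment is endostatin (NM_009929; mm10 chromosome 10, 77052179 to 77166530, minus strand). Its level was 302, 309 and 335 CPM in control pools 1 to 3 and 480.2, 476 and 438 CPM in STZ pools 1 to 3. Every STZ pool lay above every control pool, and pools within a group differed little. The log2 fold change was 0.56 ± 0.09 (SE, n = 3 against 3), a 1.48-fold difference, with an adjusted p of 0.00166 by edgeR. Some endothelial markers rose beside it: 7 of 16 were called higher and 0 lower, where 5.47% of all tested genes were called higher. The median log2 fold change of the 16 was 0.27. Ehd3 (0.80 ± 0.11) and Kdr (0.61 ± 0.10) were among those called. Of those not called, Tie1 (-0.01 ± 0.09), Tek (0.02 ± 0.09) and Ptprb (0.02 ± 0.10) were near 0. Cldn5 (-0.42 ± 0.24) and Sox17 (-0.46 ± 0.29), also not called, had negative values. The part of endothelial RNA in the Col18a1 value was not tested. The files list 2 Col18a1 transcripts that share an end and begin at different places, and the deposited count does not separate them. The 250 bases before each start are shown because the listed transcripts begin at separate places (RefSeq, GRCm38.p6, minus strand, 5′ to 3′). Capitals mark the GC box, a site of Sp-family factors, written GGGCGG or, on the other strand, CCGCCC. The first lies at chr10:77113706-77113955, before the transcript with the shorter span on the genome. The second lies at chr10:77166531-77166780, before the one with the longer span. Shorter and longer refer here to this span only, and the lengths of the 2 RNAs were not compared.
Col18a1 shorter transcript: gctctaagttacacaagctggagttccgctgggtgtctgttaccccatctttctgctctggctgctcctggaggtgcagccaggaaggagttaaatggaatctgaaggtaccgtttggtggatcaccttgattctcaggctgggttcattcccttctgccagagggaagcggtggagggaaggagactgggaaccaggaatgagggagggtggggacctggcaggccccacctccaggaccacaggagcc
Col18a1 longer transcript: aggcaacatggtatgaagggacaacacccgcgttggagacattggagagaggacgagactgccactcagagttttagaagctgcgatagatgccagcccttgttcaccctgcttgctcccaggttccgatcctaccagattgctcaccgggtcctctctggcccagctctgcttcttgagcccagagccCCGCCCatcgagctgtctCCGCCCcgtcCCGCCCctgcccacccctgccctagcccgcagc
The window of the transcript with the longer genomic span held 3 GC boxes and that of the shorter span held 0. A GC box was present in 32.7% of all 32851 promoter windows of this length and in 19 of 31 windows of the 25 members in the RefSeq promoter table.

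Col4a1 and Col4a2 encode the chains of the widespread type IV collagen network and lie head to head on chromosome 8. Col4a1 occupies 11198423 to 11312826 on the minus strand and Col4a2 11312829 to 11449287 on the plus strand, with 2 bases between them in mm10. Col4a1 stood at 1066, 1101 and 1196 CPM in control pools 1 to 3 and 1294, 1238 and 1306 CPM in STZ pools 1 to 3. Col4a2 stood at 725, 727 and 909 CPM in control pools 1 to 3 and 931, 960.3 and 957 CPM in STZ pools 1 to 3. In both genes all STZ pools were above all control pools, yet neither passed the test: the log2 fold change was 0.19 ± 0.09 for Col4a1 (adjusted p = 0.236 by edgeR) and 0.27 ± 0.11 for Col4a2 (adjusted p = 0.136). Without control pool 3, Col4a2 was called higher (log2 fold change 0.39, adjusted p = 0.0114 by edgeR), as it was with a trend on transcript length removed (0.0389). The ratio of Col4a1 to Col4a2 per kilobase was 1.39 ± 0.101 in control and 1.31 ± 0.0511 in STZ (SD, n = 3 each), a difference within the spread of the control pools. Col15a1, a collagen of the zone where basement membrane meets connective tissue, was at 134 to 155 CPM in control and 110.1 to 132 CPM in STZ. Its STZ pools lay below the control pools, and it did not pass (log2 fold change -0.24 ± 0.10, adjusted p = 0.141 by edgeR).

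The other type IV chains overlapped between the groups. Col4a3 was at 402, 411 and 176 CPM in control pools 1 to 3 and 287, 197 and 313 CPM in STZ pools 1 to 3. Control pools 1 and 2 were the highest of the 6 and control pool 3 the lowest, and all STZ pools lay between. Col4a4, which lies head to head with Col4a3 on chromosome 1 with 71 bases between them, followed the same order within control, at 155, 152 and 82.4 CPM in control pools 1 to 3 and 95.8, 75.3 and 112 CPM in STZ pools 1 to 3. Col4a5, on the X chromosome, had 69.4, 73.4 and 34.7 CPM in control pools 1 to 3 and 45.6, 31.8 and 47.5 CPM in STZ pools 1 to 3. Control pools 1 and 2 stood above the STZ range in all 3 genes, and control pool 3 was below that range for Col4a3 and inside it for Col4a4 and Col4a5. The log2 fold changes were -0.32 ± 0.40, -0.47 ± 0.29 and -0.52 ± 0.32 (SE), with adjusted p of 0.705, 0.400 and 0.397 by edgeR. The ratio of Col4a3 to Col4a4 per kilobase was 2.25 ± 0.274 in control and 2.54 ± 0.171 in STZ (SD, n = 3 each). The ratio of Col4a3 to Col4a1, a podocyte-type chain over a widespread one, was 0.290, 0.287 and 0.113 in control pools 1 to 3 and 0.170, 0.122 and 0.184 in STZ pools 1 to 3, so control pool 3 had the lowest ratio and the other control pools the highest ones.

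Some podocyte markers took a similar course over the pools. Nphs1, which encodes nephrin of the slit diaphragm, and the transcription factor gene Wt1, both chosen after their values were seen, were at 509, 541 and 241 CPM and 141, 189 and 73.8 CPM in control pools 1 to 3. In STZ pools 1 to 3 they were at 299.5, 219.99 and 329 CPM and 84.1, 72.8 and 85.1 CPM. Control pool 3 was low and control pools 1 and 2 were high in both markers. The 2 most abundant markers were less alike. Podxl, which endothelial cells also express, was at 3766, 4021 and 2956 CPM in control pools 1 to 3 and 3929, 3323 and 3873 CPM in STZ pools 1 to 3. Clic5 was at 802, 880.5 and 673 CPM in control pools 1 to 3 and 1009, 893 and 970.04 CPM in STZ pools 1 to 3, every STZ pool above every control pool. Control pool 3 held the lowest control value of each podocyte marker except Cd2ap and Pla2r1. Of the 15 podocyte markers 0 were called by edgeR, and their median log2 fold change was -0.53; the lowest single value among them was 12.5 CPM (Magi2 in STZ pool 2), so no marker was at 0. Their part in the Col4a3, Col4a4 and Col4a5 values was not tested. Without control pool 3 the call changed: Col4a4 and Col4a5 were called lower in STZ (log2 fold change -0.70 and -0.77, adjusted p = 0.00877 and 0.00679 by edgeR), and so was the marker Nphs1 (adjusted p = 0.00390).

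**Figure D2:**
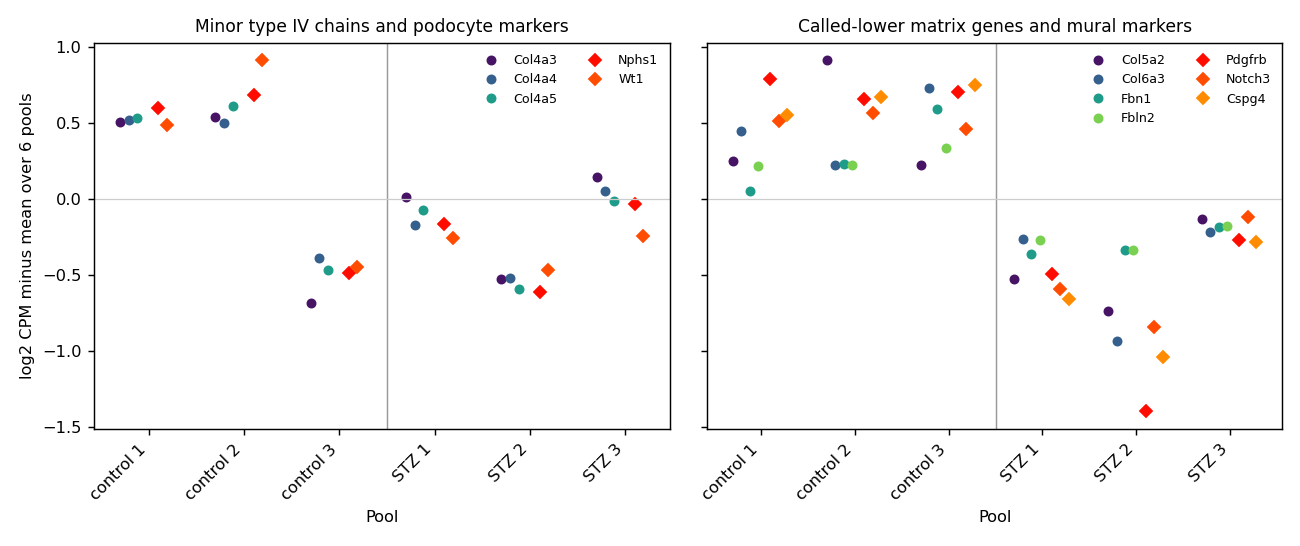
Log2 CPM of each pool minus the gene's mean over the 6 pools (y axis) by pool (x axis); circles are matrix genes and diamonds cell type markers. On the left Col4a3, Col4a4, Col4a5 and the podocyte markers Nphs1 and Wt1 are all low in control pool 3 and STZ pool 2, and on the right the 4 matrix genes called lower and the mural markers lie above 0 in every control pool and below 0 in every STZ pool.

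Of the 5 laminin chains 0 were called by edgeR. Lama5 and Lamb2, chains of the laminin trimer of the mature glomerular basement membrane, were abundant in both groups. Lama5 was at 1283, 1161 and 1431 CPM in control pools 1 to 3 and 1182, 1379 and 1259 CPM in STZ pools 1 to 3. Lamb2 was at 1012, 945 and 1065 CPM and 899, 992 and 917 CPM in the same order. Both ranges overlapped, and the 95% intervals of the log2 fold change ran from -0.25 to 0.21 for Lama5 and from -0.31 to 0.10 for Lamb2. Lamc1, the gamma chain they share with other laminins, had 284 to 364 CPM in control and 364 to 372 CPM in STZ (log2 fold change 0.19 ± 0.10). Lama4, the alpha chain typical of endothelial basement membranes, had a level of 92.6 to 105 CPM in control and 81.6 to 85.1 CPM in STZ without overlap, but missed the threshold (-0.22 ± 0.09, adjusted p = 0.143 by edgeR). Lamb1, the beta chain of the immature and mesangial matrix, overlapped between groups (-0.26 ± 0.11, adjusted p = 0.175 by edgeR). Per kilobase, Lamb2 stood at 179 CPM per kb and Lamb1 at 12.7 CPM per kb in control.

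Of the 4 linker genes 0 were called by edgeR, and agrin came nearest. Agrn, which encodes the main heparan sulfate proteoglycan of the glomerular basement membrane, was at 725, 626 and 716 CPM in control pools 1 to 3 and 539, 568 and 562 CPM in STZ pools 1 to 3. All STZ pools were below all control pools, with a log2 fold change of -0.31 ± 0.09 and an adjusted p of 0.0582 by edgeR. DESeq2 (adjusted p = 0.0211), upper-quartile scaling (0.0463) and the fit without control pool 2 (0.0325) called it lower. Hspg2, which encodes perlecan, had 967 to 1269 CPM in control and 1135 to 1499 CPM in STZ, with control pool 3 and STZ pool 2 the highest of their groups (log2 fold change 0.21 ± 0.13, adjusted p = 0.370 by edgeR). The nidogens, which bridge laminin and type IV collagen, did not pass. Nid1 was at 249 to 259 CPM in control and 262 to 307 CPM in STZ (0.18 ± 0.09), and Nid2 at 161 to 206 and 182 to 187 CPM (0.05 ± 0.10).

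**Figure D3:**
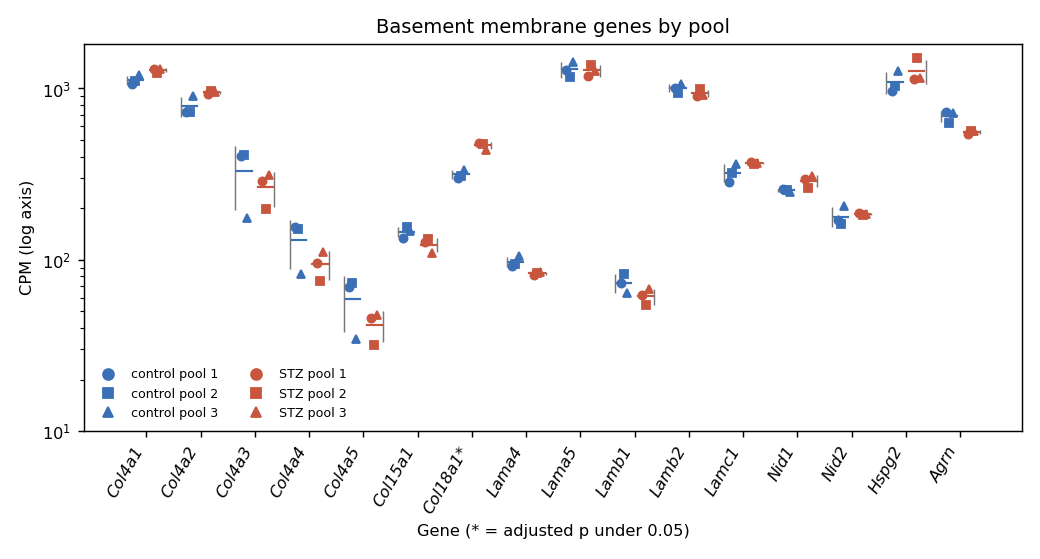
CPM (log axis) of the 16 basement membrane genes in each pool; horizontal lines are group means and the grey vertical bars beside them SD over 3 pools. Only Col18a1 carries the mark of a call, and Col4a3, Col4a4 and Col4a5 show the wide control spread set by control pool 3.

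The interstitial genes that fell belong to collagen V, collagen VI and the microfibrils. Fbln2, which encodes a fibulin that binds fibronectin, nidogen and perlecan (NM_007992; mm10 chromosome 6, 91212764 to 91272540, plus strand), was at 197, 198 and 214 CPM in control pools 1 to 3 and 141, 135 and 150.2 CPM in STZ pools 1 to 3. The groups were well apart and the pools within each close together, with a log2 fold change of -0.51 ± 0.09 and an adjusted p of 0.00214 by edgeR. Fbn1, which encodes the main microfibril protein fibrillin (NM_007993; mm10 chromosome 2, 125300594 to 125506438, minus strand), was at 59.1, 66.8 and 85.7 CPM in control pools 1 to 3 and 44.4, 45.2 and 50.1 CPM in STZ pools 1 to 3. Control pool 3 was its highest pool, and the groups did not overlap (log2 fold change -0.59 ± 0.13, adjusted p = 0.0109 by edgeR). Without STZ pool 1, Fbn1 missed the threshold (adjusted p = 0.0565).

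Col6a3, a chain of the beaded-filament collagen VI (NM_001243009; mm10 chromosome 1, 90766860 to 90843971, minus strand), was at 33.8, 28.9 and 41.1 CPM in control pools 1 to 3 and 20.7, 12.97 and 21.4 CPM in STZ pools 1 to 3. STZ pool 2 was the lowest of the 6 pools, and the groups did not overlap (log2 fold change -0.91 ± 0.20, adjusted p = 0.0140 by edgeR). Without control pool 1 the adjusted p was 0.0619. Col5a2, a chain of the collagen that regulates fibril width (NM_007737; mm10 chromosome 1, 45374331 to 45503282, minus strand), was at 23.6, 37.4 and 23.2 CPM in control pools 1 to 3 and 13.8, 11.9 and 18.1 CPM in STZ pools 1 to 3. Control pool 2 stood above the other control pools, which in turn were above every STZ pool (log2 fold change -0.94 ± 0.21, adjusted p = 0.0195 by edgeR). The Col5a2 call was lost without STZ pool 1 (adjusted p = 0.0964). No partner chain was called lower with them. Col5a3, a collagen V chain outside the 39, rose, at 14.1 to 17.8 CPM in control and 23.7 to 29.9 CPM in STZ (log2 fold change 0.75 ± 0.15, adjusted p = 0.00568 by edgeR). The others did not pass: Col6a1 and Col6a2 had counts of 12 to 68 per pool and log2 fold changes of 0.18 ± 0.27 and -0.25 ± 0.31, and Col5a1 one of -0.13 ± 0.16, with adjusted p of 0.744, 0.689 and 0.688 by edgeR. Whether chains of the same collagen differ in response was not tested.

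Some mesangial and mural markers fell alongside these genes. Of 15 such markers tested 4 (26.7%) were called lower (Rgs5, Cspg4, Notch3 and Myh11) and 0 higher, against 4.32% of all tested genes called lower. The median log2 fold change of the 15 was -0.85. In 12 of the 15 the STZ pools lay wholly below the control pools, against 13.7% of all tested genes. Rgs5, a regulator of G-protein signalling in pericytes, was at 61.9 to 76.1 CPM in control and 27.9 to 37.2 CPM in STZ (log2 fold change -1.13 ± 0.13). Notch3, a receptor of smooth muscle and pericytes, was at 126 to 136 and 51.1 to 84.5 CPM (-0.999 ± 0.16), and the pericyte proteoglycan gene Cspg4 at 70.9 to 81.3 and 23.6 to 39.8 CPM (-1.28 ± 0.16). Pdgfrb, a receptor of mesangial cells and pericytes that was chosen after its values were seen, was at 221 to 243 and 53.4 to 117 CPM. Its lowest value was in STZ pool 2, where Col6a3, Col5a2 and Fbln2 were also lowest, whereas Fbn1 was lowest in STZ pool 1. Over the STZ pools Fbln2 ran only from 135 to 150 CPM. The adjusted p of Pdgfrb was 0.0538 by edgeR. For Myh11 the adjusted p by edgeR rose to 0.0642, 0.0704 and 0.0886 on leaving out control pool 1, control pool 2 and STZ pool 1 in turn, which ended its call. No marker of this list was at 0. The part of mesangial and mural RNA in the lower values of Fbln2, Fbn1, Col6a3 and Col5a2 was not tested.

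The 250 bases before the start of 3 of these genes are shown to set them beside the Col18a1 promoters (RefSeq, GRCm38.p6, 5′ to 3′, same capitals). Fbln2 is read from chr6:91212514-91212763 on the plus strand, Fbn1 from chr2:125506439-125506688 and Col6a3 from chr1:90843972-90844221 on the minus strand.
Fbln2: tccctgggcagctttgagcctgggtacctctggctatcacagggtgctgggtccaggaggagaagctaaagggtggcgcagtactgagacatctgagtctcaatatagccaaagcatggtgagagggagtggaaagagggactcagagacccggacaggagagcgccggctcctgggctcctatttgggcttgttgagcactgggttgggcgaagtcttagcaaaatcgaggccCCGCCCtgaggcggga
Fbn1: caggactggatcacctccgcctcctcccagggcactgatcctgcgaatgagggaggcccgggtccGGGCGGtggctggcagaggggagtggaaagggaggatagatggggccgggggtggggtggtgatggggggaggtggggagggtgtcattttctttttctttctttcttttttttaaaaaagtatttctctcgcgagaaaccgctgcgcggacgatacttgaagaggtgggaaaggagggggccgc
Col6a3: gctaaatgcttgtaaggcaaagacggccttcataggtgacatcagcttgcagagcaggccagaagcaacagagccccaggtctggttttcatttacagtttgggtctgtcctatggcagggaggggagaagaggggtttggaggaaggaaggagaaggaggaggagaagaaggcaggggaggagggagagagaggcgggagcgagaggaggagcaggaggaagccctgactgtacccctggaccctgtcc
Fbln2 and Fbn1 held 1 GC box each and Col6a3 held 0. A TATA box (TATAAA), an AP-1 site (TGACTCA) and a full palindromic glucocorticoid response element, searched on both strands, had no match in these 5 windows. Over all windows they were found in 12.4%, 4.46% and 0.00913% respectively, so most windows lack these letters.

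The fibrillar collagen members other than Col5a2 did not pass the test, and neither did Fn1. Col1a1 and Col3a1, chains of type I and type III collagen, were scarce. Col1a1 was at 7.80, 5.14 and 5.74 CPM in control pools 1 to 3 and 4.74, 5.10 and 6.31 CPM in STZ pools 1 to 3, from counts of 26 to 78. Col3a1 was at 7.91 to 8.67 CPM in control and 7.87 to 10.6 CPM in STZ. Both overlapped, with adjusted p of 0.605 and 0.755 by edgeR. Fn1, which encodes fibronectin, was at 26.6 to 40.9 CPM in control and 25.0 to 33.0 CPM in STZ (log2 fold change -0.23 ± 0.16, adjusted p = 0.426 by edgeR).

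Col1a2, Thbs1 and Loxl2 showed the same low control pool 3 as the Col4a3 group. Col1a2, the partner chain of Col1a1, was at 95.6, 103 and 44.4 CPM in control pools 1 to 3 and 55.2, 34.3 and 58.5 CPM in STZ pools 1 to 3. Thbs1, which encodes thrombospondin and can activate latent TGF-beta, was at 69.2, 79.3 and 25.6 CPM in control pools 1 to 3 and 36.8, 21.8 and 28.7 CPM in STZ pools 1 to 3. Loxl2, a lysyl oxidase that cross-links type IV collagen, was at 80.0, 91.5 and 35.3 CPM in control pools 1 to 3 and 60.6, 36.9 and 57.1 CPM in STZ pools 1 to 3. In all 3 genes control pools 1 and 2 were above every STZ pool and control pool 3 was below that of every STZ pool for Loxl2 and inside the STZ range for Col1a2 and Thbs1. None of the 3 passed the edgeR test (adjusted p = 0.351, 0.287 and 0.603). Without control pool 3, Thbs1 (log2 fold change -1.35, adjusted p = 0.00219) and Col1a2 (-1.01, adjusted p = 0.0466) were called lower, whereas Loxl2 was not (adjusted p = 0.0821). Nphs1 and Wt1 were likewise low in control pool 3 (above), and the part of podocyte RNA in these values was not tested. Lox, the lysyl oxidase of fibrillar collagen and elastin, had counts of 22 to 53 per pool and a log2 fold change of -0.47 ± 0.25 (adjusted p = 0.273 by edgeR).

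Sparc and Ctgf, the most abundant matricellular genes, lay apart between the groups in opposite directions without passing. Sparc was at 1756, 1822 and 1565 CPM in control pools 1 to 3 and 2282, 1986 and 2098 CPM in STZ pools 1 to 3. All STZ pools were above all control pools (log2 fold change 0.31 ± 0.10, adjusted p = 0.0810 by edgeR). Ctgf, a connective tissue growth factor induced by TGF-beta and YAP signalling, was at 525, 589 and 534 CPM in control pools 1 to 3 and 409, 244 and 470.4 CPM in STZ pools 1 to 3. STZ pool 2 was by far its lowest pool, and all STZ pools were below all control pools (log2 fold change -0.55 ± 0.23, adjusted p = 0.210 by edgeR). DESeq2 called Sparc higher (adjusted p = 0.0268) and Ctgf lower (0.0157). Cyr61, of the same family as Ctgf, was at 63.0 to 86.8 CPM in control and 76.0 to 84.3 CPM in STZ (log2 fold change 0.04 ± 0.12). Tnc and Postn, matricellular genes of remodelling tissue, overlapped between the groups. Tnc was at 21.1, 15.6 and 21.4 CPM in control pools 1 to 3 and 14.9, 7.87 and 19.7 CPM in STZ pools 1 to 3 (log2 fold change -0.45 ± 0.31), and Postn at 3.69 to 5.05 and 2.85 to 5.83 CPM (-0.09 ± 0.29). STZ pool 2 held the lowest value of both genes, as it did for Ctgf and for the mural marker Pdgfrb, and the part of mural RNA in these values was not tested.

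The remaining members did not pass the test either. Fbln5, a fibulin of elastic fibres, was at 364 to 388 CPM in control and 344 to 410.1 CPM in STZ, and the 95% interval of its log2 fold change was -0.16 to 0.25. Mgp, an inhibitor of calcification, was at 61.4 to 82.7 and 73.3 to 83.0 CPM, with an interval of -0.13 to 0.35. Bgn, the X-linked gene of the small proteoglycan biglycan, was at 253, 248 and 228 CPM in control pools 1 to 3 and 257, 155 and 281 CPM in STZ pools 1 to 3, with STZ pool 2 low and the other STZ pools at or above control. Its log2 fold change was -0.07 and turned to 0.14 without STZ pool 2. Dcn, which encodes decorin, had 12 to 44 counts per pool. The 95% interval of its log2 fold change, -0.81 to 0.78, leaves differences within these limits undecided.

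**Figure D4:**
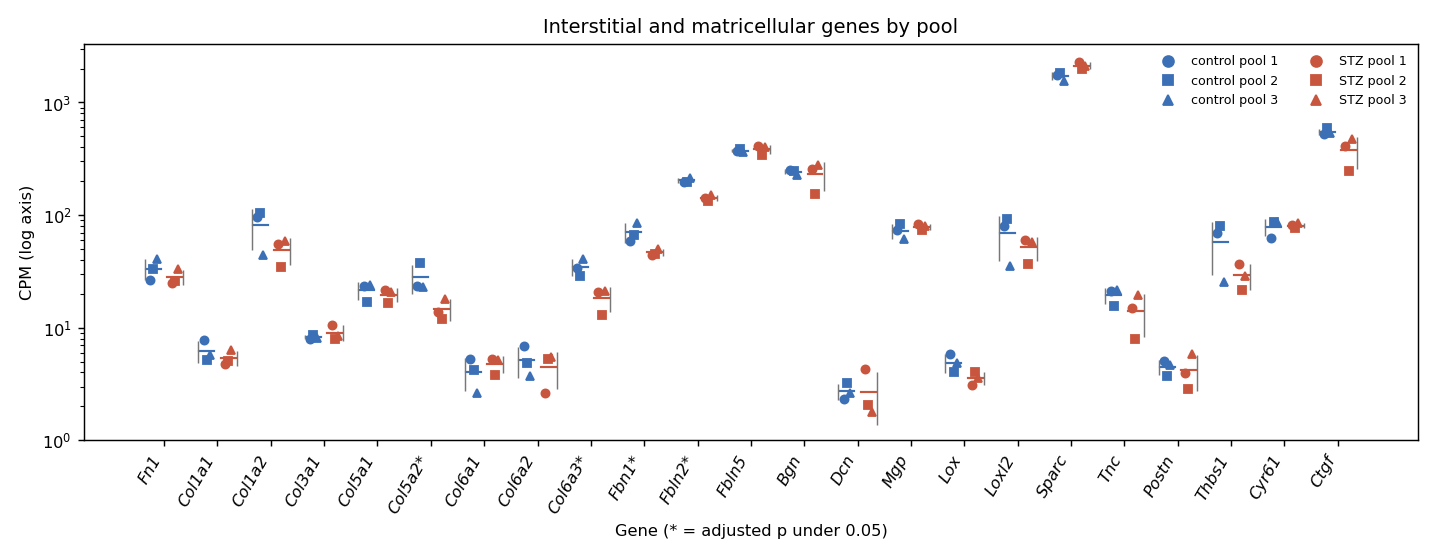
CPM (log axis) of the 23 interstitial and matricellular genes in each pool; horizontal lines are group means and the grey vertical bars beside them SD over 3 pools. Col5a2, Col6a3, Fbn1 and Fbln2 carry the mark of a call, while Sparc stands highest and Col1a1, Col6a1, Col6a2, Dcn, Lox and Postn lie below 10 CPM.

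Other genes of the matrix were read from 3 further lists. Of all tested genes 5.47% were called higher and 4.32% lower. Of 21 other basement membrane genes tested 1 (4.76%) was called higher and 0 lower (median log2 fold change -0.13). It was Tinagl1, a tubulointerstitial nephritis antigen-like protein, at 657 to 694 CPM in control and 841 to 860.1 CPM in STZ (0.34 ± 0.09, adjusted p = 0.0270 by edgeR), and leaving out any pool other than control pool 3 ended this call (adjusted p 0.0521 to 0.121). Of 25 other interstitial genes 5 (20%) were called higher and 3 (12%) lower, so this list went both ways (median 0.00696). Emilin1, an elastic fibre glycoprotein (0.65 ± 0.10), Ecm1 (0.63 ± 0.10), Mfap2, a microfibril protein (0.64 ± 0.12), the collagen V chain gene Col5a3 (0.75 ± 0.15) and Mmrn2, an endothelial partner of CD93 (0.41 ± 0.09), rose. Ecm2 (-0.81 ± 0.13), Ltbp3, which binds latent TGF-beta (-0.49 ± 0.09), and Igfbp7 (-0.91 ± 0.22) fell. Their adjusted p ran from 0.000909 for Emilin1 to 0.0444 for Igfbp7 by edgeR. Igfbp7 was no longer called without control pool 3 (0.148), on thinning to the shallowest pool (0.0517) or without any STZ pool (0.0903 to 0.168), and Mmrn2 without STZ pool 1 (0.0536) or 3 (0.0524).

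Among genes that fold, modify and process collagen more calls were upward than downward. Of 28 tested 6 were called higher and 1 lower, 21.4% and 3.57% of the list against 5.47% and 4.32% of all tested genes, with a median log2 fold change of 0.08. Fkbp14, which encodes an endoplasmic reticulum prolyl isomerase acting on procollagen, was at 25.1, 25.1 and 23.9 CPM in control pools 1 to 3 and 75.8, 67.8 and 70.2 CPM in STZ pools 1 to 3. Its groups were far apart (log2 fold change 1.53 ± 0.10, adjusted p = 1.39e-06 by edgeR). P4ha2, the catalytic subunit of a collagen prolyl hydroxylase, was at 90.2, 68.4 and 80.0 CPM in control pools 1 to 3 and 139.6, 148 and 154 CPM in STZ pools 1 to 3 (0.88 ± 0.10, adjusted p = 0.000155 by edgeR). Serpinh1, the collagen chaperone HSP47, was at 502, 552 and 572 CPM in control pools 1 to 3 and 843, 801 and 770.4 CPM in STZ pools 1 to 3 (0.57 ± 0.09, adjusted p = 0.00182 by edgeR). In each of these 3 genes every STZ pool exceeded every control pool. The lysyl hydroxylase gene Plod1 (0.51 ± 0.09), Fkbp10 (0.43 ± 0.11) and P4hb (0.34 ± 0.10) also rose, and the prolyl hydroxylase gene Leprel2 fell (-0.73 ± 0.16). P4hb had an adjusted p of 0.0491 by edgeR and lost its call in 10 of 18 alternative settings, among them those without control pool 1 (0.148) or 3 (0.0931) and STZ pool 1 (0.222) or 3 (0.155). Fkbp10 was not called on thinning (0.116) and without control pool 1 (0.0636) and STZ pools 1 (0.109) or 3 (0.0558). The endothelial markers were called higher in 43.8% of their list, and their part in the values of this group was not tested. Several of these proteins also serve clients other than collagen, and P4hb is a general disulfide isomerase.

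**Figure D5:**
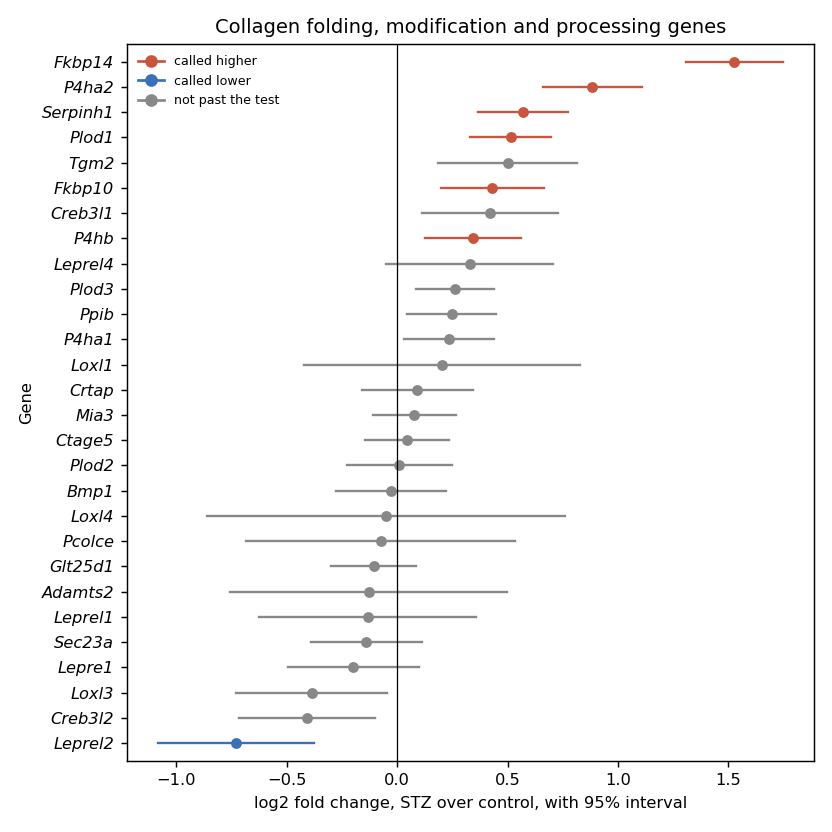
Log2 fold change of STZ over control (x axis) for 28 collagen folding, modification and processing genes (y axis, sorted); points are edgeR estimates and bars 95% intervals, 3 pools against 3. Fkbp14 and P4ha2 stand highest, and Leprel2 is the only gene called lower.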

How the data were processed

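RNA was sequenced from 6 pools of sorted glomerular endothelial cells (RNA integrity above 7.5, per the labels' protocols). The deposited files hold 1 expected count per gene in multiples of 0.5. The submitters' processing notes name mm10 as build and limma among the tools. Aligner, counting tool and strand setting were not given in the sources used here. The 34 blank cells were read as 0, and values were rounded to whole counts. Of the 39 members 30 had 1 listed transcript and 9 had several, whose counts are deposited as 1 value. The 9 include Sparc and the called members Col18a1, Col6a3 and Fbln2. Levels and levels per kb of these 9 rest on a summary over transcripts that is not known. Listed starts were raised by 1 to count from 1, after which the starts of 21 of the 25 members in the RefSeq promoter table matched it.

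Genes were tested in R 4.3.3 with edgeR 4.0.16 (filterByExpr, TMM, robust quasi-likelihood F test, two-sided, Benjamini-Hochberg over 12786 genes, threshold 0.05). Biological coefficient of variation was 0.117. CPM use the TMM library size, and CPM per kb divide by the listed transcript length. The pipeline was tested on simulated data. Groups came from the labels, and the main test did not pair pools by their numbers. Alternatives were other scalings and filters, DESeq2 1.42.0, limma-voom (limma 3.58.1), a fit that was not robust, other thresholds, a replicate block, thinning to the shallowest pool, removal of a length trend, and leaving out each pool.

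The members and lists were chosen with earlier results of these data known. Named genes are the 39 members, Nos3, the sex-linked genes, up to 8 called genes of each further list, and of each marker list the 2 most abundant and up to 4 called genes. Other markers, among them Tie1, Tek, Ptprb, Cldn5, Sox17, Pdgfra and Tcf21, were named outside this rule with their values known. Printed here are those that bear on the members, and 1 podocyte marker fixed in the list is not reported here and was left out of its counts and sums.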

Additional observations from a re-analysis of the deposited data

How the results depend on the processing

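The settings were 18 in number, giving 702 values for the 39 members. Of these 664 kept the direction and the side of the threshold, 9 lost a call, 13 gained one and 16 changed sign, none of the last being called in either fit. The count of members called higher was 1 with all settings as planned, 2 by DESeq2, at a threshold of 0.10 and with the length trend removed, and 0 where an absolute log2 change of 1 or more was also required, which left 0 members called lower as well. Leaving out 1 pool gave 1 to 2 members called higher and 2 (without STZ pool 1) to 8 (without control pool 3) called lower. The basement membrane median ran from -0.113 to 0.00256 on leaving out 1 pool, and was 0.00265 with the length trend removed. The interstitial and matricellular median lay between -0.402 (STZ pool 3 left out) and -0.150 (control pool 1 left out). The causes were not tested.

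Signs turned for Dcn on thinning (0.27) and for Lama5 with the length trend removed (0.0682). On leaving out 1 pool, these log2 fold changes crossed 0. Dcn ranged from -0.48 to 0.22, Lama5 ranged from -0.0901 to 0.0644, Col6a2 ranged from -0.43 to 0.0543, Postn ranged from -0.40 to 0.13 and Cyr61 ranged from -0.11 to 0.12. Nid2 ranged from -0.0170 to 0.16, Col3a1 ranged from -0.00973 to 0.21, Fbln5 ranged from -0.00441 to 0.12 and Bgn ranged from -0.24 to 0.14.

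The replicate numbers shared by the groups gave correlations of deviations of 0.119, -0.128 and -0.163 for same-numbered pools. Pools with different numbers gave -0.243 to 0.295. With 3 pools per group, such values cannot show whether same-numbered pools share a day or batch. The labels state no pairing, and the main test used none. With the replicate block 1 member was called higher and 3 lower, Col5a2 losing its call (adjusted p = 0.0530), and 1001 of all tested genes were called against 1251. Without control pool 1 all called genes numbered 720, without STZ pool 1 they numbered 662, and at an absolute log2 change of 1 or more they numbered 190. Depth limits Dcn, Col6a1, Col6a2, Col1a1, Lox and Postn, whose counts were all under 100 per pool.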
